A study of Mus musculus with 36 samples.

Results

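Digenic mice carry the RC allele on both copies of Pkd1 and lack Pkhd1, and their kidneys were compared at postnatal day 12 (P12) with Pkd1-RC/RC kidneys, which carry the same Pkd1 allele and keep Pkhd1. The comparison was made to show what loss of Pkhd1 adds to the Pkd1 allele. The groups also differed in the sexes of their mice and in adrenal transcripts, as given below. The 3 Digenic and 3 Pkd1-RC/RC libraries of P12 were chosen by the genotype and age in the sample labels, and are 6 of the 36 libraries of the series. All 36 hold total RNA of whole kidney from mice of the C57BL/6 strain, read as 150 bp paired ends. Digenic, Pkd1-RC/RC, Pkhd1-/- and WT mice gave 3 libraries each at days 0, 3 and 12 after birth (P0, P3 and P12). The labels do not say how the Pkhd1 allele was made, nor that each library came from its own litter, so p-values measure only the spread between these libraries.

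Pkd1 encodes polycystin-1, a large membrane protein of the primary cilium and of cell contacts, and its reduced function gives autosomal dominant polycystic kidney disease. RC is a missense allele with reduced function. Pkhd1 encodes fibrocystin, a membrane protein of the cilium made in the collecting duct and the thick ascending limb, and its loss gives the autosomal recessive form of the disease. In polycystic kidneys the tubules widen into fluid-filled cysts lined by poorly differentiated epithelium, and the tissue between them takes up macrophages and matrix.

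The 6 libraries held 53152909 to 70020647 counts over the listed genes. Levels are CPM (read counts scaled to library size, with TMM factors), and log2 fold changes (Digenic minus Pkd1-RC/RC, ± standard error) and Benjamini-Hochberg adjusted p-values come from edgeR's quasi-likelihood test on all 12 libraries of P12. Each standard error was derived from the fold change and F statistic of that test, with a spread shared by all genotypes. A gene was called at an adjusted p under 0.05 over the 18002 genes tested. By the column headers the Digenic mice were male, male and female and the Pkd1-RC/RC mice all male, and sex-linked counts gave the same sexes. In 2 of the 6 libraries a header differs from the label, and the label was used. The header of Digenic replicate 1 says P3, and that of Pkd1-RC/RC replicate 2 says Pkhd1, but its Pkhd1 level was that of the other Pkd1-RC/RC libraries. Transcripts of the adrenal gland, which lies against the kidney, summed to 15.9, 184 and 232 CPM in the Digenic libraries, against 22.3, 23.8 and 23 CPM in the Pkd1-RC/RC libraries, over 11 markers of which 0 were called. Cyp11b1, a defining enzyme of the adrenal cortex, was at 0, 15.4 and 22.1 CPM in Digenic and 0.174, 0.0549 and 0.0274 CPM in Pkd1-RC/RC libraries. Adrenal transcripts thus stood out in Digenic replicates 2 and 3, and also in Pkhd1-/- replicate 3 (252 CPM). Their part in the results was not tested beyond the values given without these libraries. In fits below that kept only Digenic replicate 1 of its group, Pkhd1-/- replicate 3 was left out as well.

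Pkhd1 itself (chr1:20057779-20618064 on the mm10 build, minus strand) had 32.3, 20.4 and 18.6 CPM in Digenic libraries, against 224, 229.7 and 214 CPM in Pkd1-RC/RC libraries. The 3 Digenic values lay far below all 3 Pkd1-RC/RC values, as the labels say. The log2 difference was -3.23 ± 0.19 (adjusted p = 6.83e-06). The antisense gene 4930486I03Rik, which lies inside Pkhd1 on the other strand, had 0 counts in every Digenic library, against 4.52, 4.52 and 4.74 CPM in Pkd1-RC/RC libraries, which puts it at least 87.9-fold lower with a floor of 3 counts a library. Reads of the pair cannot be told apart, since strand is not stated for the counting. The same holds for other genes named below that overlap a gene of the opposite strand: Acaa1b, Adcy6, Arg2, Avpr2, Ccnd1, Cep290, Ciita, Col4a3, Csf1r, Egfl7, Gata3, Insrr, Invs, Junb, Klk1, Ndufs1, Nphs1, Nrg1, Pkd1, Ppp1r1b, Psmb8, Psmb9, Rgs11, Scnn1b, Slc34a1, Slc5a2, Tap1, Tgfb3, Tgtp1, Tgtp2 and Wnt7b.

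The genes of the polycystin complex moved little. Pkd1 (chr17:24549834-24596508), whose RC allele both groups carry, had 71.3, 79.3 and 86.5 CPM in Digenic and 84.7, 73.7 and 104 CPM in Pkd1-RC/RC libraries, which overlap, and the difference of -0.14 ± 0.13 did not pass (adjusted p = 0.479). Without Pkd1-RC/RC replicate 3 its sign turned, to 0.0021. Pkd2, which encodes the channel partner of polycystin-1, had 193, 183 and 204 CPM in Digenic and 215, 230.1 and 250.03 CPM in Pkd1-RC/RC libraries. All 3 Digenic values were below the lowest Pkd1-RC/RC value, with a log2 change of -0.26 ± 0.078 (adjusted p = 0.0334), a call that was lost in 4 of the 6 fits that left out a library, namely without replicate 2 or 3 of Pkd1-RC/RC or replicate 1 or 2 of Digenic. Of the 27 measured genes of inherited cystic kidney disease, 1 rose (Glis3) and 4 fell (Pkhd1, Pkd2, Umod and Invs). These shares were 3.7% and 14.8%, against 10.3% and 9.24% of all genes tested. The falls were 2 without Pkd1-RC/RC replicate 3.

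Over all genes, 3512 were called in the comparison (19.5% of those tested), 1848 higher in Digenic kidneys (10.3%) and 1664 lower (9.24%). The counts of each gene list below are to be read beside these shares. At least 2-fold changes were seen in 595 of the genes that rose and in 367 of those that fell. The libraries of the groups did not overlap in 2928 genes higher in Digenic (16.3%) and 2830 lower (15.7%). The 12 largest rises and 12 largest falls were picked among called genes without overlap. Lack of overlap in those genes thus follows from the choice. The count was 1449 when the 6 libraries were fitted alone, 2205 without Pkd1-RC/RC replicate 1, and 2198 when all 36 libraries shared a fit. The falls moved more than the rises, to 892 without Pkd1-RC/RC replicate 1, 1042 without its replicate 3 and 1082 without Digenic replicate 3. On the first principal component of the 12 libraries of P12, which held 44.4% of the variance, Digenic replicates 1, 2 and 3 lay at 74.3, 35.4 and 61.3, against -16.4, -12.2 and -11.7 for Pkd1-RC/RC. Digenic replicate 2 was the nearest to the Pkd1-RC/RC kidneys there, and it was the lowest of the Digenic libraries in most immune genes below.

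**Figure D1:**
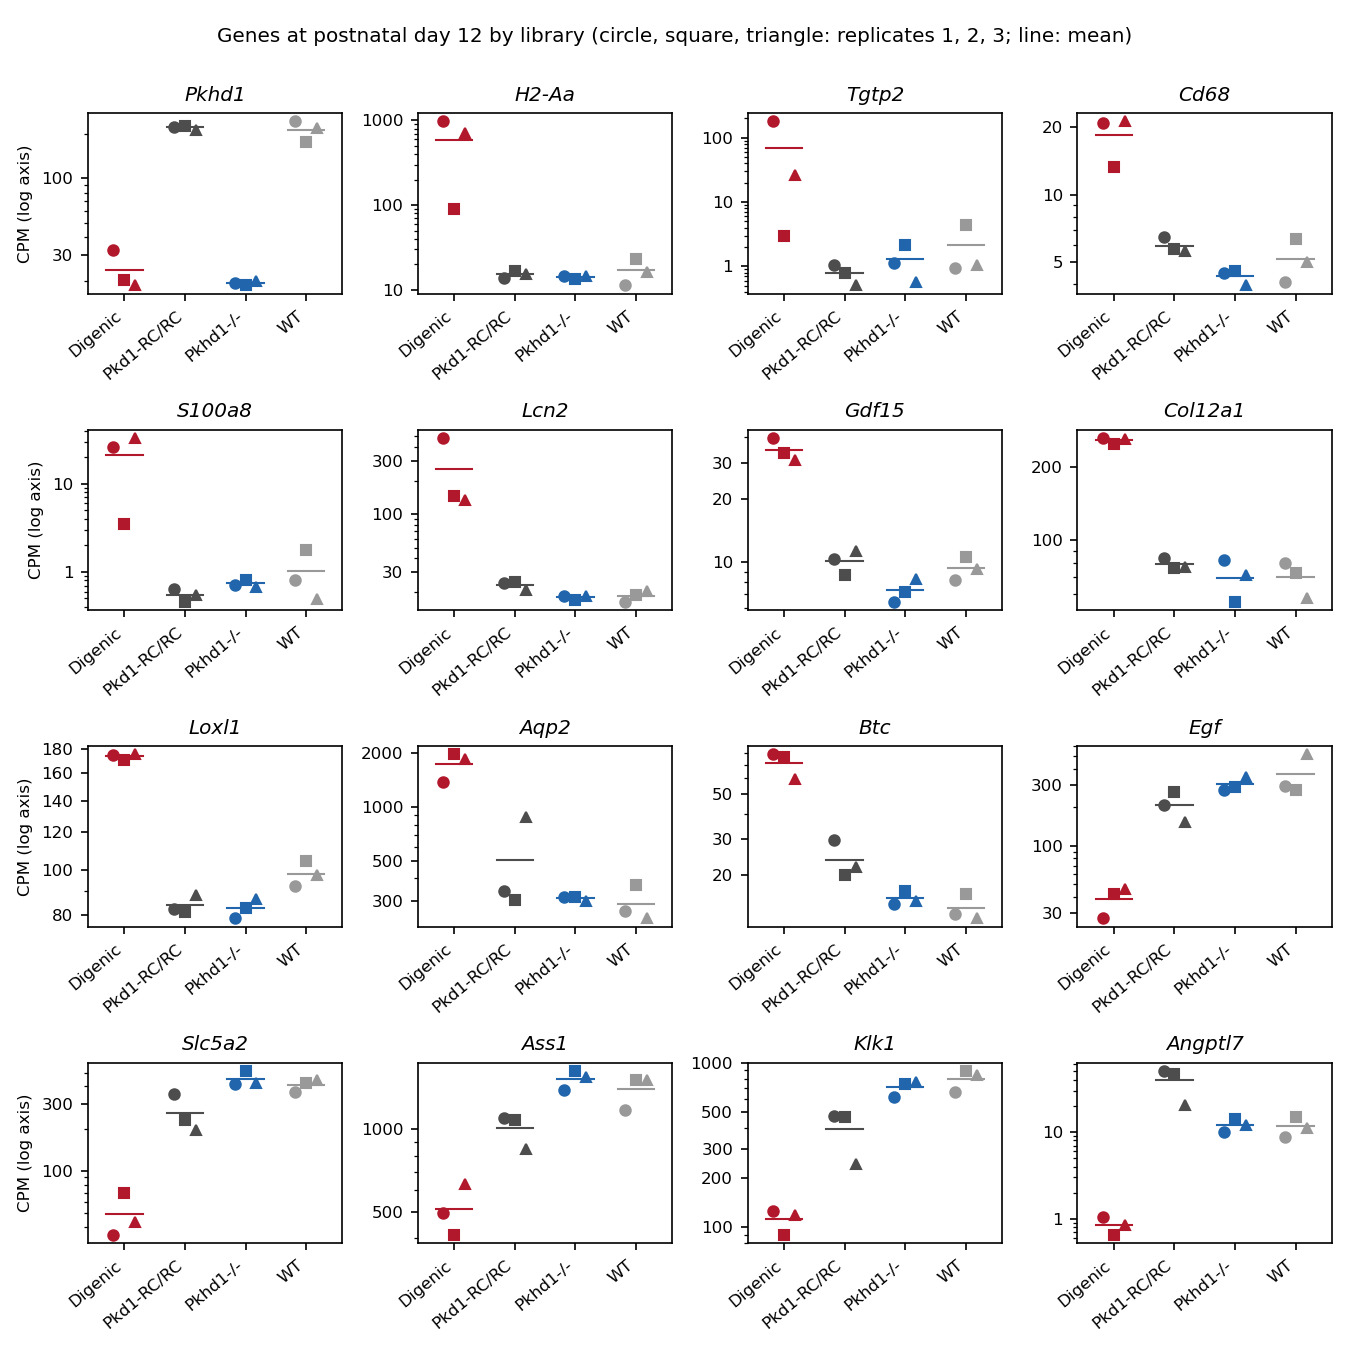
Levels of 16 genes in the 12 libraries of P12 (CPM, log axis, 1 panel a gene), with 1 point a library and a line at the group mean. Pkhd1 is low in Digenic and Pkhd1-/- libraries, while H2-Aa, Lcn2, Gdf15 and Col12a1 stand above the other 3 genotypes in all 3 Digenic libraries and Egf, Slc5a2 and Angptl7 below them.

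Genes of antigen presentation rose in every measured member. All 19 measured members were called higher in Digenic kidneys, each at least 2-fold, with a median log2 change of 3.29, against -0.0072 over all genes tested. Their summed level was 16013, 2521 and 12274 CPM in Digenic libraries, against 935, 1018 and 889 CPM in Pkd1-RC/RC libraries. The lowest Digenic library stood above the highest Pkd1-RC/RC library, and the Digenic libraries were themselves several-fold apart. In a whole kidney, more cells that make a transcript and more of it per cell cannot be told apart. With only the 6 libraries in the fit, 5 of the 19 were called.

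H2-Aa, the alpha chain of an MHC class II molecule that shows peptides to helper T cells, had 979, 91.2 and 716 CPM in Digenic and 13.7, 16.8 and 15.2 CPM in Pkd1-RC/RC libraries, a log2 rise of 5.29 ± 0.79 (adjusted p = 0.00328). Its partner chain H2-Ab1 had 1053, 113 and 807 CPM in Digenic against 24, 24.3 and 23.6 CPM in Pkd1-RC/RC libraries and rose by 4.78, and Cd74, the invariant chain that escorts class II molecules, had 2591, 269 and 1907 CPM in Digenic against 47.3, 50.3 and 44.2 CPM in Pkd1-RC/RC libraries. In each of the 3 genes replicate 2 was the lowest Digenic library. It still stood clear of the Pkd1-RC/RC range, as their choice among the largest rises required. Ciita, the master activator of class II genes, was called too, at 54.7, 2.92 and 15.4 CPM in Digenic and 1.9, 1.48 and 1.86 CPM in Pkd1-RC/RC libraries.

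Class I genes, which nearly every cell can express, moved with them. H2-K1, a heavy chain, had 2913, 436 and 2547 CPM in Digenic and 119, 125 and 124 CPM in Pkd1-RC/RC libraries (4.0 ± 0.58, adjusted p = 0.00246). B2m, the light chain shared by class I molecules, had 2862, 537 and 2093 CPM in Digenic against 237, 277 and 204 CPM in Pkd1-RC/RC libraries. Nlrc5, the activator of class I genes, had 44.6, 3.32 and 15.8 CPM in Digenic against 1.16, 0.786 and 1.23 CPM in Pkd1-RC/RC libraries. Tap1, which pumps peptides into the endoplasmic reticulum, rose by 3.29 and the immunoproteasome subunits Psmb8 and Psmb9, which cut them, by 3.8 and 3.68. The H2 heavy chains are close paralogs, and how their reads were shared is not given in the sources used.

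Promoters of the antigen presentation and interferon response lists, members called or not, were read for 2 short motifs around the annotated start (RefSeq, GRCm38.p6). CCAAT, on either strand, is the core of the Y box of class II promoters, but a match to these letters alone need not be a Y box. It was in 13 of the 15 antigen presentation genes with a promoter sequence (86.7%), against 41.1% of 27025 genes. GAAANNGAA, the core of the interferon-stimulated response element, was in 21 of 29 interferon response genes (72.4%), against 9.76% of all. The list was chosen as interferon response genes, so this share follows from that choice and tests nothing about these kidneys. GAAANNGAA was in 2 of the 15 antigen presentation genes (13.3%) and CCAAT in 9 of the 29 interferon response genes (31%). Of 3 other motifs read the same way, TGANTCA (AP-1) was in 7 of the 29 interferon genes (24.1%) and 8.97% of all, GGAATG (TEAD) in 2 (6.9%) and 16.6%, and GTTAATNAT (HNF1) in 0 and 0.94%. In the 15 antigen presentation genes these 3 motifs were in 2 (13.3%), 0 and 0. A match describes these letters only, and binding was not measured. Shown are 3 antigen presentation promoters and 3 interferon response promoters, 5′ to 3′ on the strand of the gene, with matches to CCAAT and GAAANNGAA on either strand in capitals (no match overlaps another). They lie at chr17:34287774-34288073 (minus strand), chr17:34000298-34000597 (minus), chr2:122147437-122147736 (plus), chr11:49064163-49064462 (minus), chr11:58199306-58199605 (plus) and chr3:142620413-142620712 (plus).
H2-Aa promoter: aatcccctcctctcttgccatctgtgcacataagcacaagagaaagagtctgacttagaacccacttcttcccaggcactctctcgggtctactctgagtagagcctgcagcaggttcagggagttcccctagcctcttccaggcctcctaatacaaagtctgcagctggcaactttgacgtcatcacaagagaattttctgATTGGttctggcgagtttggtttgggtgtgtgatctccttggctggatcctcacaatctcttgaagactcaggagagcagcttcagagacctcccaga
H2-K1 promoter: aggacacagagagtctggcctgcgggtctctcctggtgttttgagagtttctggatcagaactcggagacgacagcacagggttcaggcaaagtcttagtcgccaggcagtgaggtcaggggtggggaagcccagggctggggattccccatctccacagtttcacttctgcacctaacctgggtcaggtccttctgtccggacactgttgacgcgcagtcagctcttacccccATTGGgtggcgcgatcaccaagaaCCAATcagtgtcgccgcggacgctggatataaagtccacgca
B2m promoter: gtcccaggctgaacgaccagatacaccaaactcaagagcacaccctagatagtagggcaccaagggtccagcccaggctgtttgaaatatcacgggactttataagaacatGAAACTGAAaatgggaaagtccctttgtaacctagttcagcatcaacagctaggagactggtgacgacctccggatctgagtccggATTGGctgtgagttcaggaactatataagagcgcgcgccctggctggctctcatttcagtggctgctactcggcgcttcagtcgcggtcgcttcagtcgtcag
Tgtp2 promoter: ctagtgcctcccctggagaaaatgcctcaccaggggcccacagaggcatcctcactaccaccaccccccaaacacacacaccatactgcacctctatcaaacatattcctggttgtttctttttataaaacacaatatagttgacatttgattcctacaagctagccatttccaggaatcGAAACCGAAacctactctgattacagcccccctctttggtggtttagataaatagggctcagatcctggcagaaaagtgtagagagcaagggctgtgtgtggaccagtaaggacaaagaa
Igtp promoter: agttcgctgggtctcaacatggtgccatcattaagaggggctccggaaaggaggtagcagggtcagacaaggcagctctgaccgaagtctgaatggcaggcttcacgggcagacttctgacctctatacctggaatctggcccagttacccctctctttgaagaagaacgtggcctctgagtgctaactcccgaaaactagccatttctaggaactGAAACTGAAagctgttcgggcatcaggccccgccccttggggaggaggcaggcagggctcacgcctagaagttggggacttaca
Gbp2 promoter: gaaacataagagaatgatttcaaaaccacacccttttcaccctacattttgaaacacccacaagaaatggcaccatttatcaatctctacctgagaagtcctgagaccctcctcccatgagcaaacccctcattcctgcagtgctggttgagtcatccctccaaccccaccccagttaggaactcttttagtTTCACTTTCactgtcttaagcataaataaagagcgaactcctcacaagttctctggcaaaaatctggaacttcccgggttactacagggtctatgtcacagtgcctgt

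Interferon response genes held several of the largest rises and a wide spread between Digenic libraries. Of 39 measured, 22 rose and 0 fell, with a median of 1.7 that was 0.91 without Digenic replicate 1. Their summed level was 5343, 633 and 1310 CPM in Digenic libraries and 527, 481 and 406 CPM in Pkd1-RC/RC libraries. It was 470, 636 and 513 CPM in WT libraries, a range that held Digenic replicate 2. Tgtp2, a GTPase that attacks the vacuoles of intracellular parasites, had 179, 2.94 and 25.8 CPM in Digenic and 1.05, 0.786 and 0.506 CPM in Pkd1-RC/RC libraries (6.48 ± 1.55, adjusted p = 0.0223). Replicate 1 was several times as high as replicate 3 there, and replicate 2 lay just above the Pkd1-RC/RC kidneys. Its near-identical neighbour Tgtp1 showed the same order, and reads of the pair may be shared. Gbp6, a guanylate-binding protein, had 194, 3.56 and 36.8 CPM in Digenic against 2.54, 1.59 and 1.72 CPM in Pkd1-RC/RC libraries, and Iigp1, an immunity-related GTPase, 949, 15.5 and 107 CPM in Digenic against 6.76, 5.96 and 3.87 CPM in Pkd1-RC/RC libraries. The calls of Tgtp2, Gbp6 and Iigp1 were each lost without any 1 of the 3 Pkd1-RC/RC libraries.

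The IRG and GBP GTPases just given are known to answer to interferon gamma in mouse. Of genes better known from type I interferon, Ifit1 had 15, 3.77 and 4.19 CPM in Digenic and 4.02, 3.09 and 1.56 CPM in Pkd1-RC/RC libraries (adjusted p = 0.0743), and Isg15 18.2, 7.85 and 5.86 CPM in Digenic against 6.86, 3.86 and 2.22 CPM in Pkd1-RC/RC libraries (adjusted p = 0.077). Neither passed at P12, but both did at P3 in the fit of all 36 libraries (adjusted p = 0.0208 and 0.0291). Others of this kind passed at P12: Oasl2, an oligoadenylate synthetase-like protein, rose by 2.22 (adjusted p = 0.00838), Irf9, a transcription factor of the type I response, by 0.88 (adjusted p = 0.0106), and Oas1a, a sensor of double-stranded RNA, was at 8.54, 4.76 and 4.48 CPM in Digenic and 1.93, 1.55 and 1.04 CPM in Pkd1-RC/RC libraries. The 22 calls became 12, 10 and 6 without Pkd1-RC/RC replicate 1, 2 and 3, 1 in the 6 libraries alone, and 34 with DESeq2. With only Digenic replicate 1 kept of its group, and Pkhd1-/- replicate 3 left out, the median log2 change was 2.56. Digenic replicate 1 was the Digenic library lowest in adrenal markers and highest in the 3 GTPases above.

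Macrophage genes rose in 27 of 29 measured members, with a median of 2.18. The list shares Cd74 with antigen presentation, and C1qa, C1qb, C1qc and Itgam with the complement list. Cd68, a lysosomal protein of macrophages, had 20.9, 13.2 and 21.3 CPM in Digenic and 6.47, 5.72 and 5.62 CPM in Pkd1-RC/RC libraries (1.64 ± 0.19, adjusted p = 0.000376). Csf1r, the receptor that keeps them alive, had 214, 117 and 223 CPM in Digenic against 76.4, 73.8 and 84.5 CPM in Pkd1-RC/RC libraries, and C1qa, a complement subunit they make, 123, 38.8 and 111 CPM in Digenic against 17.9, 15 and 13.5 CPM in Pkd1-RC/RC libraries. Every Digenic value of the 3 genes stood above every Pkd1-RC/RC value. Itgam, an adhesion chain of monocytes and neutrophils, rose by 2.49 and Ms4a7, a macrophage membrane protein, by 2.57. Cd14, which binds bacterial lipopolysaccharide, and Mrc1, the mannose receptor of resident macrophages, rose by 1.56 and 1.7.

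Neutrophil genes rose in 9 of 11, in a list that shares Lcn2 with the tubular injury list below. S100a8, a calcium-binding alarmin packed into neutrophils, had 26.3, 3.48 and 33.2 CPM in Digenic and 0.639, 0.457 and 0.547 CPM in Pkd1-RC/RC libraries (5.25 ± 0.81, adjusted p = 0.00269). Its partner S100a9 had 24.6, 4.01 and 40 CPM in Digenic against 0.378, 1.04 and 0.958 CPM in Pkd1-RC/RC libraries, and Retnlg, a resistin-like granulocyte gene, 3.15, 0.468 and 5.5 CPM in Digenic against 0.116, 0 and 0.137 CPM in Pkd1-RC/RC libraries. Replicate 2 was again the lowest Digenic library in all 3. Fcgr4, an activating receptor for IgG on myeloid cells, rose by 4.53 and Csf3r, the receptor for granulocyte growth factor, by 1.5. Lymphocyte genes rose in 4 of 10, among them Cd79b of B cells (0.89) and Lck of T cells (0.88). The call of Lck rested on Digenic replicate 3 and on Pkd1-RC/RC replicates 2 and 3. The other 6 genes were not called, with log2 changes down to -1.08. The list's mean log2 CPM overlapped, at 1.43, 1.39 and 1.89 in Digenic and 1.31, 1.49 and 0.949 in Pkd1-RC/RC libraries. Its summed level did not, at 87.5, 52.2 and 92.9 CPM in Digenic against 42.3, 44.4 and 39.4 CPM in Pkd1-RC/RC libraries. Cd4, on helper T cells and some macrophages, had 13.8, 5.45 and 18 CPM in Digenic and 2.01, 2.49 and 2.19 CPM in Pkd1-RC/RC libraries.

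Of 19 measured chemokines and cytokines, 11 rose and 2 fell. Ccl21a, which draws dendritic cells and lymphocytes, had 81.6, 21.4 and 101 CPM in Digenic and 1.92, 1.85 and 4.34 CPM in Pkd1-RC/RC libraries (4.64 ± 0.65, adjusted p = 0.0021). Csf1, the ligand of Csf1r, had 76.1, 34.5 and 41.8 CPM in Digenic against 21.2, 15.2 and 18.1 CPM in Pkd1-RC/RC libraries, and Cx3cl1, a membrane-bound monocyte chemokine, 180.3, 133 and 149 CPM in Digenic against 84.6, 92.6 and 83.9 CPM in Pkd1-RC/RC libraries. The ligand and receptor of the Csf1 pair both stood apart in all 6 libraries. Leaving out Pkd1-RC/RC replicate 3 gave 6 chemokine rises, and leaving out its replicate 2 or Digenic replicate 1 gave 7. The falls came to 0 without Digenic replicate 1 or 3 or Pkd1-RC/RC replicate 2, and to 1 without Pkd1-RC/RC replicate 1 or 3. Complement genes rose in 15 of 23 and fell in 1, a fall lost without replicate 1 or 3 of either group: C4b, a component of the classical pathway, had 41.8, 5.21 and 25 CPM in Digenic against 1.21, 0.878 and 0.794 CPM in Pkd1-RC/RC libraries (4.64 ± 0.76), C3, the central component, 134, 17.7 and 69.7 CPM in Digenic against 15.7, 12.8 and 17.3 CPM in Pkd1-RC/RC libraries, and the receptors C3ar1 and C5ar1 rose by 1.97 and 2.3.

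**Figure D2:**
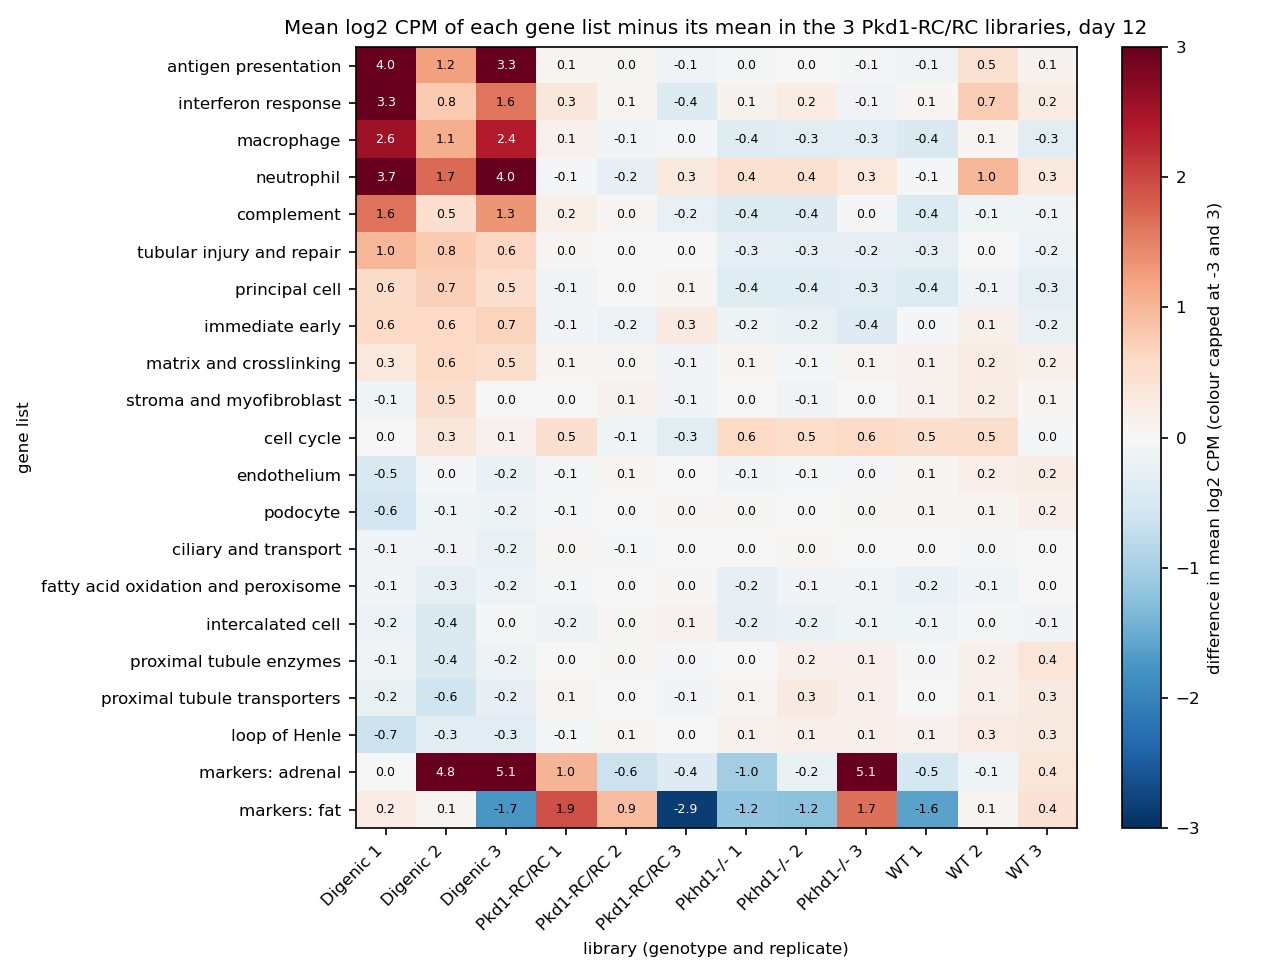
Mean log2 CPM of 21 gene lists in the 12 libraries of P12 (columns, by genotype and replicate), each minus its mean in the 3 Pkd1-RC/RC libraries. The immune lists stand highest in Digenic replicates 1 and 3, tubular injury, principal cell and immediate early lists are raised by like amounts in all 3 Digenic libraries, and the adrenal list is raised in Digenic replicates 2 and 3 and in Pkhd1-/- replicate 3.

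Genes of tubular injury and repair rose in 19 of 29 measured and fell in 0, with a median of 0.66. Lcn2, an iron-siderophore binding protein that injured tubules secrete, had 485, 145 and 133 CPM in Digenic and 23.8, 24.3 and 20.7 CPM in Pkd1-RC/RC libraries (3.47 ± 0.47, adjusted p = 0.00182). Havcr1, the phosphatidylserine receptor known as kidney injury molecule, had 11.7, 11.7 and 7.33 CPM in Digenic against 3.4, 1.08 and 3.34 CPM in Pkd1-RC/RC libraries (1.97 ± 0.38). Gdf15, a stress hormone of the TGF-beta family, had 39.6, 33.3 and 31 CPM in Digenic against 10.3, 8.63 and 11.3 CPM in Pkd1-RC/RC libraries (1.78 ± 0.14, adjusted p = 4.24e-05). All 3 stood clear of the Pkd1-RC/RC range, and in each the lowest Digenic library was replicate 3. The keratins of simple epithelium Krt18 and Krt19 rose by 1.14 and 1.6, and Cd44, a hyaluronan receptor, had 24.4, 23.2 and 23.7 CPM in Digenic and 12.1, 9.77 and 11.6 CPM in Pkd1-RC/RC libraries. Krt20 overlapped between the groups, at 7.33, 4.53 and 2.62 CPM in Digenic against 1.66, 2.03 and 2.67 CPM in Pkd1-RC/RC libraries. Its call did not survive leaving out Digenic replicate 1, or Pkd1-RC/RC replicate 1 or 2, and the list's count was 12 without the libraries whose headers differ from their labels.

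Within the EGF family the ligands moved in opposite directions. Egf, made by the thick ascending limb and distal tubule, had 27.1, 42.4 and 45.8 CPM in Digenic and 209, 266 and 153 CPM in Pkd1-RC/RC libraries, and fell by 2.45 ± 0.30 on the log2 scale (adjusted p = 0.000877). Btc, or betacellulin, had 79, 76.6 and 59.3 CPM in Digenic against 29.7, 19.9 and 21.9 CPM in Pkd1-RC/RC libraries and rose by 1.59 ± 0.16 (adjusted p = 0.000186), and Nrg1, a ligand of the ERBB3 and ERBB4 receptors, had 9.82, 5.08 and 8.46 CPM in Digenic against 3.12, 2.36 and 2.59 CPM in Pkd1-RC/RC libraries. Neither the fall nor the rises overlapped between the groups, which the choice of Egf among the largest falls required of it. The receptor Egfr had 80.5, 76.3 and 79.3 CPM in Digenic and 51.5, 64.9 and 53.2 CPM in Pkd1-RC/RC libraries (0.48 ± 0.10), and the ligand Tgfa rose by 0.51. In all, 5 of 13 measured members rose and 1 fell, and the rises became 3 with only Digenic replicate 1 kept of its group and the falls 2 without that library.

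Immediate early genes, which growth factors and stress switch on, rose in 10 of 21 and fell in 0. Fos had 9.2, 8.84 and 14.5 CPM in Digenic and 2.5, 2.41 and 4.15 CPM in Pkd1-RC/RC libraries (1.84 ± 0.34), and Myc, a driver of growth, 40.5, 31 and 32.6 CPM in Digenic against 16.6, 16.7 and 19.3 CPM in Pkd1-RC/RC libraries (0.98 ± 0.12, adjusted p = 0.000509). Junb, a partner of Fos in the AP-1 factor, rose by 1.03. With only Digenic replicate 1 kept of its group, 5 immediate early genes rose. Cell cycle genes rose in 2 of 35 (Ccnd1 and Mcm3, whose calls were lost in 3 and 5 of the 6 fits that left out a library) and fell in 0, against 10.3% of all genes higher. The rises were 6 without Pkd1-RC/RC replicate 1, 0 without its replicate 3 or Digenic replicate 1, and 1 without Digenic replicate 2 or 3 or Pkd1-RC/RC replicate 2. Mki67, a marker of dividing cells, had 66.6, 93.3 and 73.3 CPM in Digenic and 122, 73.8 and 61.8 CPM in Pkd1-RC/RC libraries, which overlap. The summed cell cycle level was 1674, 1909 and 1696 CPM in Digenic and 1893, 1482 and 1325 CPM in Pkd1-RC/RC libraries, where replicate 1 was the highest of its group.

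Principal cells, which take up water and sodium in the collecting duct, had 14 of 21 list members higher in Digenic kidneys and 1 lower, with a median of 0.56. The list shares Krt18 and Krt19 with the injury list. Aqp2, the water channel that vasopressin moves to the membrane, had 1377, 1981 and 1852 CPM in Digenic and 340.3, 300.3 and 883 CPM in Pkd1-RC/RC libraries (1.77 ± 0.37, adjusted p = 0.00901). Aqp3, the exit channel, had 397, 475 and 502 CPM in Digenic against 179, 169.7 and 299 CPM in Pkd1-RC/RC libraries, and Scnn1b, a subunit of the epithelial sodium channel, 180.3, 180.2 and 193 CPM in Digenic against 127, 124 and 136 CPM in Pkd1-RC/RC libraries (0.52 ± 0.068, adjusted p = 0.000667). No gene of the 3 overlapped, although Pkd1-RC/RC replicate 3 lay high in both water channels. Gata3, a transcription factor of the collecting duct, rose by 0.67 and Avpr2, the vasopressin receptor, had 53.6, 61.9 and 56.4 CPM in Digenic and 42.4, 31.9 and 29.5 CPM in Pkd1-RC/RC libraries. With only Digenic replicate 1 kept of its group, the 14 rises became 8 and the fall 0.

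Genes of cAMP signalling and cyst fluid secretion rose in 11 of 35 and fell in 2. The list shares Aqp2 and Avpr2 with the principal cell list. Cyclic AMP drives fluid secretion into cysts, and phosphodiesterases break it down. Pde3b had 72.1, 54.6 and 51.4 CPM in Digenic and 26.2, 25.5 and 27.9 CPM in Pkd1-RC/RC libraries (1.16 ± 0.12, adjusted p = 0.000205), whereas Pde4c had 24.1, 28.3 and 26.1 CPM in Digenic against 42.6, 38 and 50.6 CPM in Pkd1-RC/RC libraries (-0.74 ± 0.12). The 2 phosphodiesterases moved in opposite directions with no overlap. Adcy6, a cyclase that makes cAMP, fell by 0.46 on the log2 scale. The ATP receptors P2rx7 and P2ry2 rose by 1.11 and 0.57. Cftr, the chloride channel of cyst secretion, had 27.8, 12.1 and 22.2 CPM in Digenic and 9.04, 11.1 and 16.2 CPM in Pkd1-RC/RC libraries, which overlap (adjusted p = 0.0778). The 11 rises became 7 when either Digenic replicate 3 or Pkd1-RC/RC replicate 1 was left out, and the 2 falls became 1 without Digenic replicate 1 or Pkd1-RC/RC replicate 1 or 3.

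Matrix genes rose in 18 of 37 and fell in 0, with a median of 0.37. Crosslinking enzymes and a fibril-associated collagen were among the rises. Loxl1, which crosslinks elastin, had 175, 171 and 176 CPM in Digenic and 82.7, 81.5 and 88.4 CPM in Pkd1-RC/RC libraries (1.05 ± 0.068, adjusted p = 6.83e-06), a rise that varied little between libraries. Col12a1, a collagen that sits on fibril surfaces, had 264, 249.7 and 260.3 CPM in Digenic against 83.9, 76.5 and 77.4 CPM in Pkd1-RC/RC libraries (1.7 ± 0.14, adjusted p = 5.04e-05), and Lox, a collagen crosslinker, 143, 146 and 160.1 CPM in Digenic against 83.5, 92 and 87.7 CPM in Pkd1-RC/RC libraries. By contrast the major fibrillar collagen genes overlapped, Col1a1 at 846, 1768 and 1373 CPM in Digenic and 1036, 989 and 809.6 CPM in Pkd1-RC/RC libraries and Col3a1 at 1631, 3225 and 2249.9 CPM in Digenic against 2415, 2401 and 2129 CPM in Pkd1-RC/RC libraries. Digenic replicate 2, the lowest in immune genes, was the highest in both collagens. The matrix rises were 10, with a median of 0.18, when only Digenic replicate 1 was kept of its group, and 2 matrix genes fell without Digenic replicate 2.

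TGF-beta and BMP genes rose in 10 of 30 and fell in 0. Grem1, a secreted inhibitor of BMP ligands, had 9.46, 5.96 and 11.5 CPM in Digenic and 0.48, 0.219 and 1.57 CPM in Pkd1-RC/RC libraries (3.53 ± 0.53, adjusted p = 0.00163). The ligand Tgfb3 had 16.7, 16.6 and 14.5 CPM in Digenic against 10.1, 10.1 and 9.46 CPM in Pkd1-RC/RC libraries (0.69 ± 0.10), and Tgfbi of the matrix list, a protein that TGF-beta induces, rose by 0.66. The 3 did not overlap between the groups. Tgfb1, the best known profibrotic ligand, did overlap at 46.2, 66.1 and 63.7 CPM in Digenic and 40.8, 47.5 and 45.1 CPM in Pkd1-RC/RC libraries and passed narrowly (adjusted p = 0.0323). Leaving out Pkd1-RC/RC replicate 1 gave 6 rises, as did keeping only Digenic replicate 1 of its group, and 2 of these genes fell without Digenic replicate 2. Acta2, the actin of smooth muscle and myofibroblasts, had 513, 749 and 489 CPM in Digenic against 335, 302 and 290.3 CPM in Pkd1-RC/RC libraries (0.92 ± 0.16). Of 22 stroma genes 4 rose and 2 fell (18.2% and 9.09%, against 10.3% and 9.24% of all genes). The share of falls was thus near that of all genes. These falls came to 0 without Digenic replicate 1 or 3 or Pkd1-RC/RC replicate 1 or 2.

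**Figure D3:**
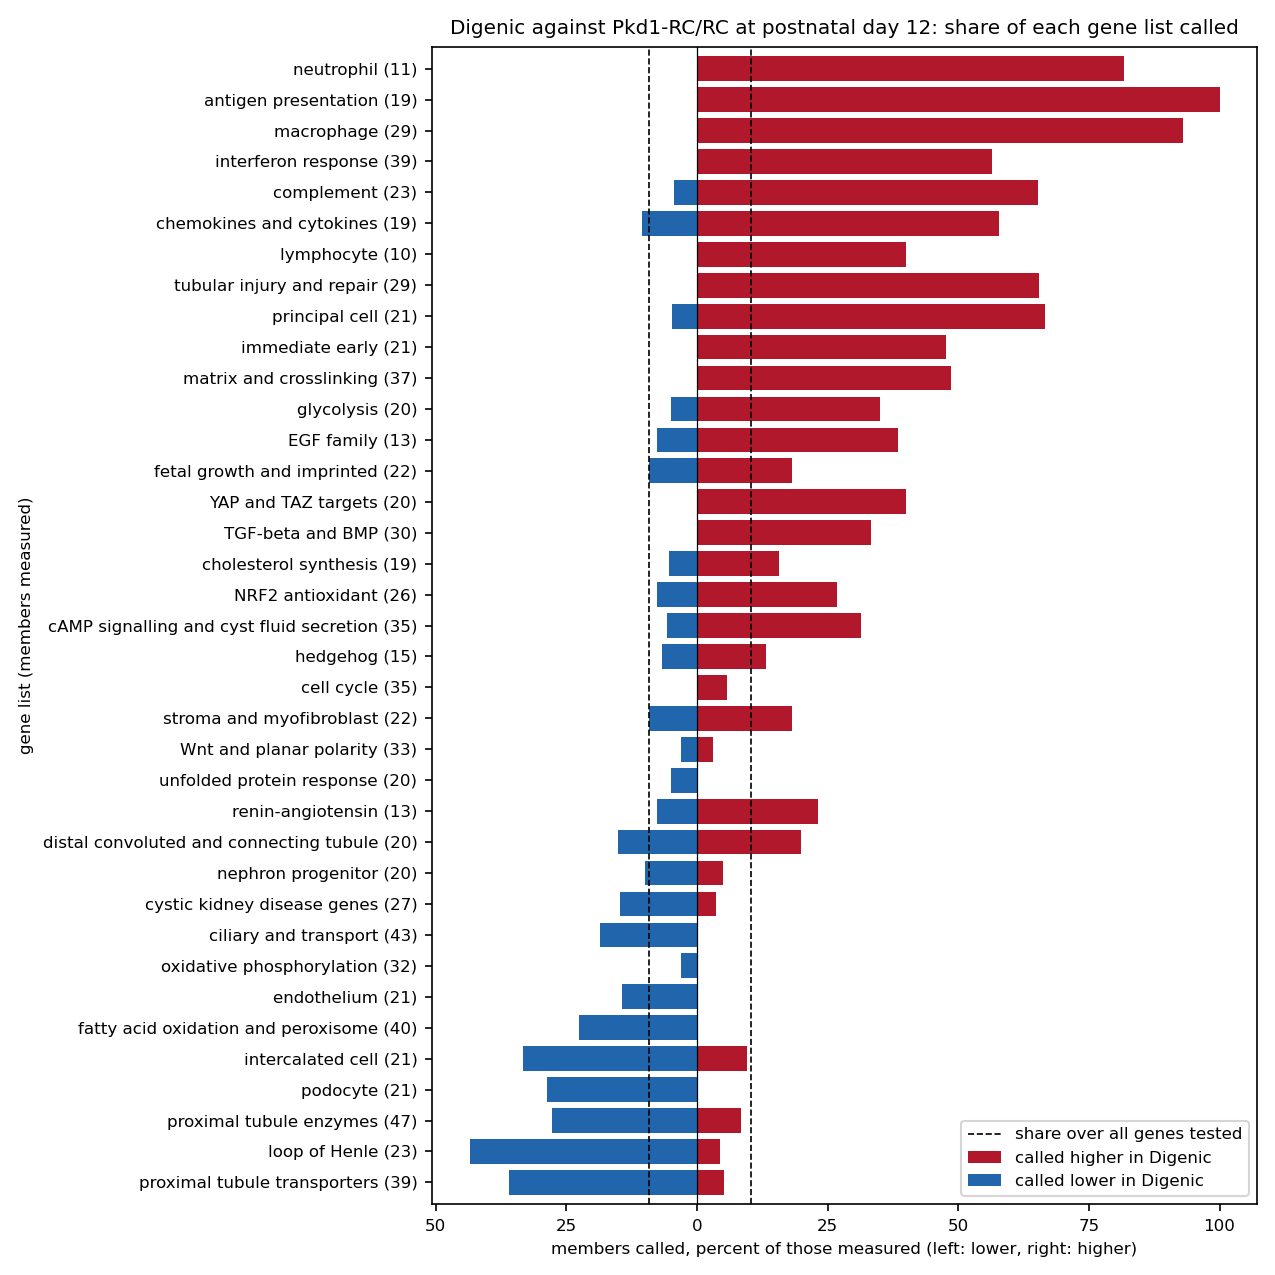
Share of measured members of each gene list called higher (bars to the right) or lower (bars to the left) at P12, Digenic minus Pkd1-RC/RC, in percent, sorted by median log2 fold change. Antigen presentation reaches 100% higher and macrophage 93.1%, loop of Henle reaches 43.5% lower, and the dashed lines mark 10.3% higher and 9.24% lower over all genes tested.

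Genes of most nephron segments had falls. Among proximal tubule transporters 14 of 39 fell and 2 rose, with a median of -0.40. Without Digenic replicate 2 the median was -0.18 and 7 rose, and without replicate 1 or 3 of either group the rises were 1. Slc5a2, the sodium-glucose cotransporter that reclaims most filtered glucose, had 35.1, 70.3 and 43.1 CPM in Digenic and 352, 232 and 195 CPM in Pkd1-RC/RC libraries (-2.39 ± 0.27, adjusted p = 0.000514). Slc34a1, the main phosphate transporter, had 1186, 1413 and 1434 CPM in Digenic against 2280.1, 2276 and 2140.2 CPM in Pkd1-RC/RC libraries (-0.73 ± 0.11). Both fell without overlap, which the choice of Slc5a2 among the largest falls required of it. Kap, an abundant androgen-responsive protein of the mouse proximal tubule, had 2384, 1446 and 1469 CPM in Digenic and 4356, 5155 and 3313 CPM in Pkd1-RC/RC libraries. Some abundant transporters did not pass: Slc22a6, an organic anion carrier, had 212, 133 and 105 CPM in Digenic against 200.4, 136 and 107 CPM in Pkd1-RC/RC libraries, and Lrp2, the endocytic receptor megalin, 624, 832 and 884 CPM in Digenic against 908, 1284 and 1115 CPM in Pkd1-RC/RC libraries (adjusted p = 0.0522). With only Digenic replicate 1 kept of its group, 9 transporters fell.

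Proximal tubule enzymes fell in 13 of 47 and rose in 4. Ass1, an enzyme of arginine synthesis, had 497, 412 and 633 CPM in Digenic against 1099, 1085 and 849 CPM in Pkd1-RC/RC libraries (-0.98 ± 0.16, adjusted p = 0.00186), while Arg2, a mitochondrial arginase that breaks arginine down, rose to 50.1, 33.6 and 44.4 CPM in Digenic, against 19, 19 and 21.3 CPM in Pkd1-RC/RC libraries (1.11 ± 0.14). For both genes the groups did not overlap. Miox, which opens the inositol ring, and Khk, the fructose kinase, fell by 0.98 and 0.71. Aldh8a1, an aldehyde dehydrogenase that belongs to no list, had 13.9, 9.26 and 13.9 CPM in Digenic and 62.7, 53.8 and 46.2 CPM in Pkd1-RC/RC libraries.

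The loop of Henle, which includes the salt-reabsorbing thick ascending limb, had 10 of 23 genes lower and 1 higher (median -0.39). Umod, the abundant urine protein uromodulin, had 1083, 1150.2 and 1099.7 CPM in Digenic and 1526, 1594 and 1354 CPM in Pkd1-RC/RC libraries (-0.42 ± 0.087, adjusted p = 0.00558). Slc12a1, the target of loop diuretics, had 624, 917 and 829 CPM in Digenic against 1040.2, 1231 and 1256 CPM in Pkd1-RC/RC libraries, and Ppp1r1b, an inhibitor of protein phosphatase 1, 1.91, 3.33 and 2.31 CPM in Digenic against 8.15, 8.6 and 7.8 CPM in Pkd1-RC/RC libraries (-1.7 ± 0.21). All 3 stood below the Pkd1-RC/RC range. The count of falls was 5 when all 36 libraries shared a fit.

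In the distal convoluted and connecting tubule 4 genes rose and 3 fell of 20 (20% and 15%, against 10.3% and 9.24% of all genes). The rises were 1 without Digenic replicate 3 or Pkd1-RC/RC replicate 1 or 2, and 2 without Digenic replicate 1. Klk1, tissue kallikrein of the connecting tubule, had 125, 89.6 and 119 CPM in Digenic and 476, 469.6 and 241 CPM in Pkd1-RC/RC libraries (-1.83 ± 0.24, adjusted p = 0.000897), and its close paralog Klk1b5 4.54, 3.2 and 1.38 CPM in Digenic against 21.3, 22.1 and 11.4 CPM in Pkd1-RC/RC libraries. Trpv5, the calcium channel of the same segment, moved the other way, at 79.7, 36.9 and 48.5 CPM in Digenic against 21.2, 25.3 and 25.4 CPM in Pkd1-RC/RC libraries (1.2 ± 0.21). Slc12a3, the thiazide-sensitive transporter, had 241, 205 and 406 CPM in Digenic and 289, 291 and 234 CPM in Pkd1-RC/RC libraries, which overlap.

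Intercalated cells, which secrete acid or base, had 7 of 21 genes lower and 2 higher, next to the rise of principal cell genes. Rhbg, an ammonia channel, had 44, 34.3 and 49.6 CPM in Digenic and 76.9, 80.7 and 76.8 CPM in Pkd1-RC/RC libraries (-0.87 ± 0.11, adjusted p = 0.000524), and Atp6v1b1, a subunit of the proton pump, 153, 156 and 161 CPM in Digenic against 193, 216 and 203 CPM in Pkd1-RC/RC libraries. Insrr, an alkali sensor, fell by 0.82, whereas Car15, a carbonic anhydrase, rose by 0.78. The count of falls was 4 without Pkd1-RC/RC replicate 2, 3 without its replicate 3 and 4 without Digenic replicate 2, and the rises were 1 without Digenic replicate 1 or 3 or Pkd1-RC/RC replicate 1.

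Podocyte genes, of the glomerular filter, fell in 6 of 21 (28.6%, against 9.24% of all genes) and rose in 0: Col4a3, a chain of the mature basement membrane collagen, had 213, 201 and 209.8 CPM in Digenic and 395, 437 and 348 CPM in Pkd1-RC/RC libraries (-0.92 ± 0.12, adjusted p = 0.000524), and its partner Col4a4 326, 345 and 347 CPM in Digenic against 472, 546 and 419.8 CPM in Pkd1-RC/RC libraries. Nphs1, of the slit diaphragm, overlapped, at 26.2, 46.8 and 39.6 CPM in Digenic against 51.2, 46 and 53.2 CPM in Pkd1-RC/RC libraries. With only Digenic replicate 1 kept of its group, 12 podocyte genes fell, and without that library 3 rose. Endothelial genes fell in 3 of 21 (14.3%, near the share of all genes), in 11 without Digenic replicate 2 and in 13 with only Digenic replicate 1 kept. The 3 were Egfl7, Emcn and Tek, with Egfl7, a secreted protein of vessel walls, at 41.1, 45.2 and 37.9 CPM in Digenic and 78.1, 58.7 and 73 CPM in Pkd1-RC/RC libraries. The call of Tek, whose libraries overlap, rested on Pkd1-RC/RC replicates 2 and 3 and on Digenic replicates 1 and 3, and was lost without any of them.

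Metabolic and ciliary lists moved by small amounts. Fatty acid oxidation genes fell in 9 of 40 and rose in 0, among them the thiolases Acaa2 (-0.53) and Acaa1b (-0.61) and the dehydrogenase Hadh (-0.42). Leaving out Pkd1-RC/RC replicate 1 gave 5 falls, leaving out its replicate 3 or Digenic replicate 2 gave 1 rise, and the count of falls was 2 with only Digenic replicate 1 kept of its group. Glycolysis genes rose in 7 of 20 and fell in 1, among them Pkm (0.37) and Eno1 (0.33), but the rises came to 0 without Pkd1-RC/RC replicate 3, 1 without Digenic replicate 3, 3 without Pkd1-RC/RC replicate 1, 4 without Digenic replicate 1 and 2 with sex as a term, and the fall was lost without Pkd1-RC/RC replicate 1. Ciliary genes fell in 8 of 43 and rose in 0. Cep290, a protein of the ciliary gate, had 12.6, 7.53 and 8.4 CPM in Digenic and 16.1, 13.9 and 17.1 CPM in Pkd1-RC/RC libraries (-0.72 ± 0.17), and Ift80, a carrier of intraflagellar transport, fell by 0.42. The ciliary count was 4 without Pkd1-RC/RC replicate 1, 5 without its replicate 3, 4 without Digenic replicate 3, 1 with only Digenic replicate 1 kept and 0 when all 36 libraries shared a fit.

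Several of the 12 largest falls that the naming rule picked belonged to no list. Angptl7, an angiopoietin-like secreted protein, had 1.06, 0.656 and 0.858 CPM in Digenic and 50.7, 46.8 and 20.3 CPM in Pkd1-RC/RC libraries (-5.51 ± 0.40, adjusted p = 5.04e-05). The Pkd1-RC/RC level was itself above that of WT, at 8.76, 15 and 11.3 CPM, and the Digenic level below it. It lies inside Mtor on the other strand, and Mtor had 79.2, 83.7 and 105 CPM in Digenic and 90.1, 92.8 and 95.6 CPM in Pkd1-RC/RC libraries. Atp10d, a lipid flippase, had 3.22, 3.77 and 3.07 CPM in Digenic against 18.4, 26.7 and 16.8 CPM in Pkd1-RC/RC libraries and 6.27, 3.86 and 7.54 CPM in WT, and the Pkd1-RC/RC libraries stood above all 9 others of P12.

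The nuclear long noncoding RNAs Neat1, Snhg11 and Firre, and Rgs11, a regulator of G protein signalling, fell as well, but their Pkd1-RC/RC libraries disagreed. Neat1, the scaffold of paraspeckles, had 24, 19.1 and 16.4 CPM in Digenic and 158, 35.6 and 138 CPM in Pkd1-RC/RC libraries, and Rgs11 0.779, 1.12 and 1.1 CPM in Digenic against 9.58, 1.57 and 10.3 CPM in Pkd1-RC/RC libraries. Pkd1-RC/RC replicate 2 lay near the Digenic values in both. The WT libraries disagreed too, at 55.5, 28.6 and 108 CPM in Neat1 and 3.12, 1.16 and 5.2 CPM in Rgs11. They had 8.95, 2.06 and 11 CPM in Snhg11 and 5.58, 1.33 and 6.29 CPM in Firre. WT replicate 2 was the lowest WT library in each. The call of Neat1 (adjusted p = 0.0228) was lost in 5 of the 6 fits that left out a library, all but that without Pkd1-RC/RC replicate 2, and that of Firre in the same 5.

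Genes next to Pkhd1 on chromosome 1 are inherited together with its knockout allele. Within 20 Mb on either side, 179 genes were tested, and 15 were called higher and 21 lower in Digenic kidneys (20.1%), close to the 19.5% over all genes. Leaving out Pkd1-RC/RC replicate 3 gave 23. Adhfe1, an alcohol dehydrogenase in that stretch, had 39.9, 49.5 and 46.4 CPM in Digenic and 126, 122 and 96.1 CPM in Pkd1-RC/RC libraries (-1.34 ± 0.12, adjusted p = 0.000113), and 56.1, 63.9 and 60.6 CPM in Pkhd1-/- and 121, 133 and 158 CPM in WT libraries. All 6 libraries with the knockout allele lay below all 6 without it. 2610203C22Rik, which overlaps it on the other strand, fell on both backgrounds as well, by 1.30 and 1.09. Within the same distance of Pkd1 on chromosome 17, which holds the H2 genes, 24.5% of 535 genes were called.

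The loss of Pkhd1 alone, Pkhd1-/- against WT at P12, called 6 genes (0.0333%), 1 higher (Gm10709, 0.00555%) and 5 lower (0.0278%, namely Pkhd1, 4930486I03Rik, Adhfe1, 2610203C22Rik and Gm5900), against 10 by DESeq2. Before adjustment 793 genes had p under 0.05. By sex-linked counts the Pkhd1-/- mice were female, female and male and the WT mice male, female and male. With sex as a term 5 genes were called. Without Pkhd1-/- replicate 3, the library with adrenal transcripts, 5 were called as well. The 1848 genes that rose in Digenic kidneys had a median log2 change of 0.63 there and of -0.07 in Pkhd1-/- against WT. The 1664 lower genes had medians of -0.59 and 0.02. Across the 18002 genes, which are not independent replicates and share a fit but no libraries, the changes correlated at r = 0.0653. Of the 19 antigen presentation genes 0 were called in Pkhd1-/- against WT, with a median of -0.20.

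The test of the difference between backgrounds, (Digenic minus Pkd1-RC/RC) minus (Pkhd1-/- minus WT), called 1542 genes (8.57%), 968 with a higher effect on the Pkd1-RC/RC background (5.38%) and 574 with a lower one (3.19%). Among gene lists it called 24 of 29 macrophage, 15 of 19 antigen presentation, 13 of 37 matrix and 9 of 21 principal cell genes higher, and 10 of 39 proximal transporters lower. Pkhd1 had an interaction of 0.24 (adjusted p = 0.597), and the knockout lowered it on both backgrounds. Loxl1 had 1.29 (adjusted p = 0.0001), Gdf15 2.13 and Slc5a2 -2.54. For Tgtp2 the difference was 7.17 and did not pass (adjusted p = 0.0655), and 7 of 39 interferon genes did. The count depended on single libraries: it was 558, 685 and 723 without Pkhd1-/- replicate 2, 1 and 3, 866 and 956 without WT replicate 2 and 3, and 795 without Pkd1-RC/RC replicate 1. It was 1318 with sex as a term, and was not fitted without all the libraries holding adrenal transcripts.

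**Figure D4:**
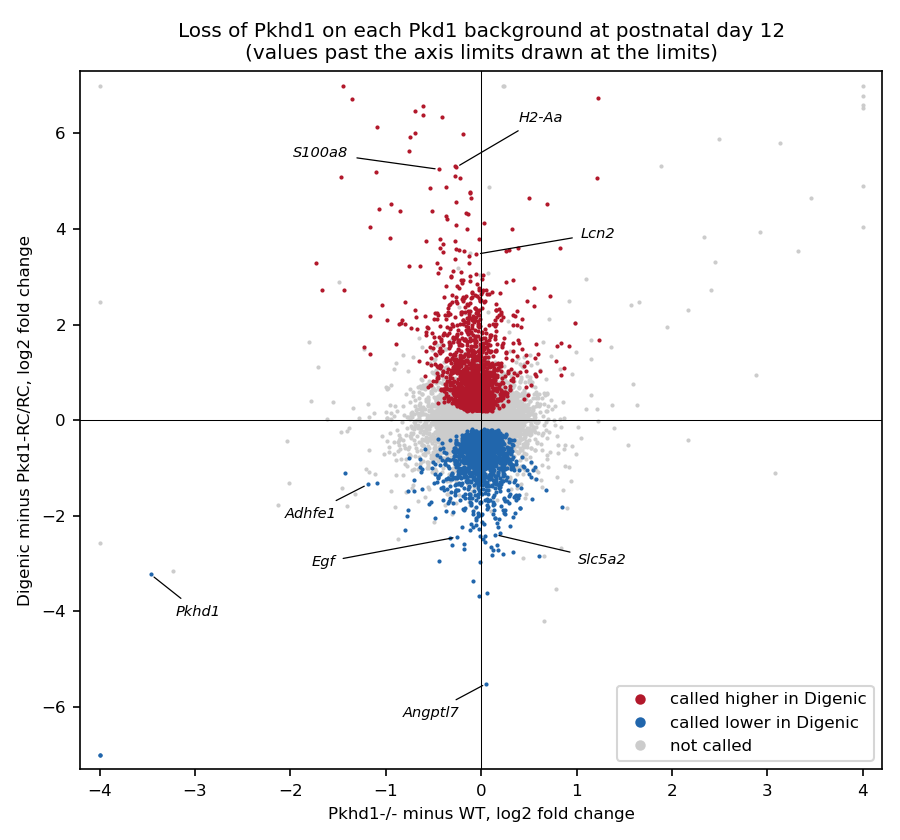
Log2 fold changes of the 18002 genes at P12 with loss of Pkhd1 on the Pkd1-RC/RC background (vertical axis, Digenic minus Pkd1-RC/RC) and on the WT background (horizontal axis, Pkhd1-/- minus WT), with 1 point a gene and colours for calls on the vertical axis. Pkhd1 and Adhfe1 lie low on both axes, while the called genes spread along the vertical axis about 0 on the horizontal one.

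At the earlier ages the same comparison called fewer genes, in a fit of all 36 libraries: 63 at P0 (0.349%; 0.233% higher and 0.116% lower) and 194 at P3 (1.07%; 0.947% higher and 0.127% lower), against 2198 at P12 (12.2%; 7.12% higher and 5.06% lower) in that fit. At P3 171 of the calls were rises, and 128 of these (74.9%) were also called higher at P12, where they make 6.93% of the 1848. Antigen presentation genes rose in 17 of 19 at P3 and interferon response genes in 34 of 39, while 4 of 29 macrophage and 0 of 21 principal cell genes did, and 1 of 39 proximal transporters fell. H2-Aa was higher by 4.32 at P3 (adjusted p = 0.00941) and Tgtp2 by 6.2, whereas S100a8 differed by 0.67 (adjusted p = 0.822) and Lcn2 by 0.21. Of 29 tubular injury genes 1 was called at P3, namely Havcr1, higher by 3.00 (adjusted p = 0.00957 by edgeR). By sex-linked counts the 3 Digenic mice of P3 were female and the Pkd1-RC/RC mice female, male and male, the header of the first saying male. With sex as a term 180 genes were called at P3, 35 of the interferon, 16 of the antigen presentation and 2 of the macrophage genes among them. The P3 count rested on single libraries, at 3, 4 and 9 without Pkd1-RC/RC replicate 1, 2 and 3, 4 and 114 without Digenic replicate 2 and 1, and 341 without Digenic replicate 3. The 34 interferon calls of P3 came to 0, 0 and 1 without Pkd1-RC/RC replicate 1, 2 and 3 and to 0 without Digenic replicate 2. The 17 antigen presentation calls came to 0 without each of these 4 libraries and to 11 without Digenic replicate 1, and the 4 macrophage calls to 0 without each of the 4, 2 without Digenic replicate 1 and 8 without Digenic replicate 3. The P0 count was 18, 39 and 141 without Pkd1-RC/RC replicate 1, 2 and 3 and 28 without Digenic replicate 3.

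The change of the effect from P3 to P12 passed in 415 genes (2.3%), 196 upward (1.09%) and 219 downward (1.21%). Lcn2 changed by 3.27 (adjusted p = 0.000333), S100a8 by 4.59 and S100a9 by 4.74, and Egf by -2.57. Havcr1 changed by -1.03, which did not pass (adjusted p = 0.58 by edgeR). Among lists the test called 12 of 29 macrophage and 6 of 11 neutrophil genes upward. It called 0 of 39 interferon response and 0 of 19 antigen presentation genes in either direction. With sex as a term 394 genes passed, with the same 4 list counts. The 12 macrophage calls were 6 without replicate 1 of either group at P3, without Pkd1-RC/RC replicate 3 at P12 or without Digenic replicate 1 or 3 at P12, and 7 without Digenic replicate 3 at P3. The count ranged from 165 without Pkd1-RC/RC replicate 1 of P3 to 594, and was 172 without Digenic replicate 1 of P3, 198 and 212 without Pkd1-RC/RC replicate 1 and 3 of P12, 220 and 270 without Digenic replicate 3 and 1 of P12, and 271 without Pkd1-RC/RC replicate 2 of P3.

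Many genes that fell in Digenic kidneys rise in WT kidneys over these days. In WT kidneys 3350 genes (18.6%) rose and 3063 (17%) fell between P3 and P12. Of the 1664 genes that fell in Digenic kidneys, 772 (46.4%) rose in WT and 53 (3.19%) fell. Of the 1848 higher genes 171 (9.25%) rose in WT and 571 (30.9%) fell. The WT libraries of P12 are not compared here but share the fit behind these calls, and so bear on their spread. Egf rose by 4.75 in WT over these days, Klk1 by 3.88, Aldh8a1 by 3.47, Kap by 2.67 and Col4a3 by 2.36, and all 5 were lower in Digenic kidneys. Sox9, a factor of growing and repairing tubules, fell by 2.94 in WT and had 4.66, 5.41 and 5 CPM in Digenic, against 2.53, 2.41 and 1.82 CPM in Pkd1-RC/RC libraries at P12.

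A position along the WT change was computed for each library over 1774 genes with at least a 2-fold WT change, with 0 at the WT P3 mean and 1 at the WT P12 mean. The Digenic libraries of P12 lay at 0.751, 0.677 and 0.745 and the Pkd1-RC/RC libraries at 0.968, 0.949 and 0.930, means of 0.724 ± 0.0409 and 0.949 ± 0.0190 (SD, n = 3 each). The groups did not overlap, and the difference of -0.225 gave p = 0.1 in the exact two-sided permutation test, the smallest p that 3 against 3 libraries allow. It was -0.220 without the proximal tubule genes and -0.190 over the 410 genes with at least a 4-fold WT change. Digenic replicate 1, whose header says P3, thus lay with the other Digenic libraries of P12.

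**Figure D5:**
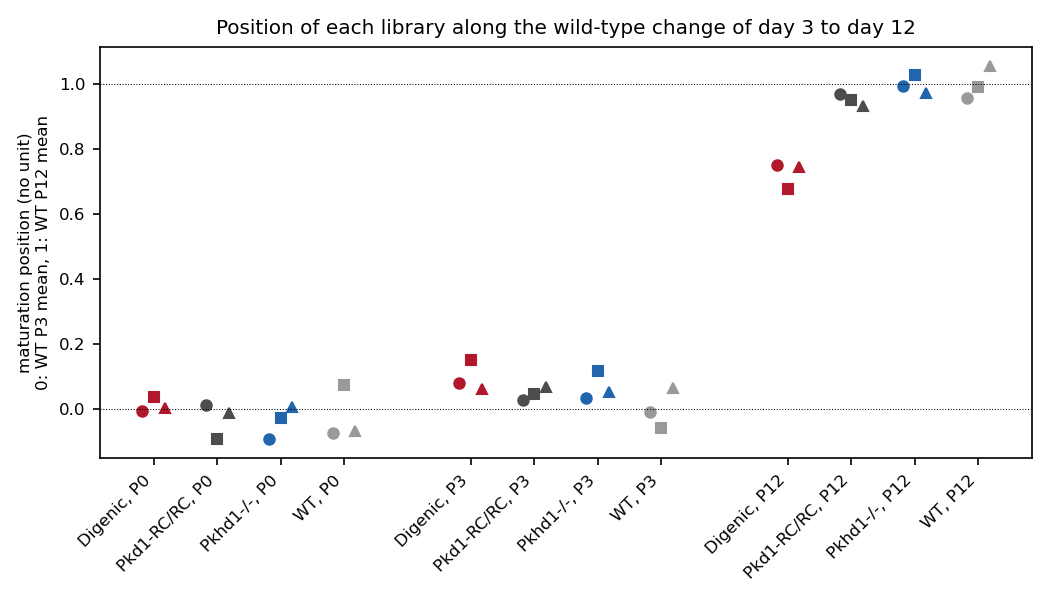
Position of each of the 36 libraries along the WT change from P3 (0) to P12 (1), with 1 point a library, by age and genotype. The 3 Digenic libraries of P12 lie between 0.677 and 0.751 and the 3 Pkd1-RC/RC libraries between 0.930 and 0.968, and all libraries of P0 and P3 lie at 0.152 or lower.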

How the data were processed

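The authors deposited a table of raw counts per gene for 36 whole-kidney libraries, and per the submitters' processing notes the tools included TopHat2, Bowtie, featureCounts and edgeR within MAP-RSeq 2.1.0, on mm10. Strand and multi-mapping settings are not given in the sources used here. Columns were matched to samples by the number in the sample title, and the labels were kept where a header differs.

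The counts were fitted with edgeR 4.0.16 in R 4.3.3 (TMM scaling, filterByExpr, robust quasi-likelihood test, Benjamini-Hochberg adjustment). The 12 libraries of P12 shared a fit with a mean per genotype, and 18002 of 18049 genes passed the low-count filter. Contrasts of P0, P3 and age, and of WT over age, came from a fit of all 36. Alternatives used DESeq2 1.42.0, other scalings, no filter, a replicate block, a sex term, other sets of libraries, and each library left out in turn. Only the fit of the 12 libraries was tested on simulated counts, for Digenic minus Pkd1-RC/RC. The simulation gave every group the same spread, and the other fits and contrasts were not simulated. Gene positions are those of GENCODE M21.

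Named genes were Pkhd1, Pkd1 and Pkd2, the 12 largest rises and falls (called, not overlapping, mean log2 CPM of at least 1), the 4 smallest adjusted p of each list, and the extremes of the interaction, the age change and the neighbours of Pkhd1. Other genes were named for their role after their values were seen. A few genes are not reported here. The groups compared and the gene lists were chosen with earlier results of these data known. Some lists share members, so their counts are not independent.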

Additional observations from a re-analysis of the deposited data

Results flagged for a closer look

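The effect of Pkhd1 loss differed between the Pkd1-RC/RC and WT backgrounds in 1542 genes by the interaction test. Among the genes named for the largest changes, the interaction was 5.69 for S100a8, 5.55 for H2-Aa, 5.47 for Fcgr4, 5.4 for S100a9, 5.39 for Mir5107 (which lies inside Cd74), 5.29 for Cd74, 4.89 for H2-Ab1, 4.75 for Ccl21a, 4.14 for C4b, 3.52 for Lcn2 and 2.45 for Ugt2b37, a glucuronosyltransferase. It was -5.56 for Angptl7, -3.65 for Snhg11, -3.44 for Rgs11, -2.78 for Atp10d, -2.54 for Slc5a2, -2.41 for Klk1b5, -2.19 for Egf and -2.14 for Aldh8a1. All are log2 differences with an adjusted p under 0.05 by edgeR's quasi-likelihood test. With 1 of the 12 libraries left out at a time, the call was lost in 10 fits for Rgs11, 9 for Fcgr4, 9 for Snhg11, 6 for S100a9 and 1 for H2-Aa.

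The effect of Pkhd1 loss on the Pkd1-RC/RC background changed between P3 and P12 in 415 genes. The P12 minus P3 change was 4.74 for S100a9, 4.59 for S100a8, 3.27 for Lcn2, 3.1 for Ugt2b37, 2.95 for Fcgr4 and 2.71 for Ccl21a. It was -4.98 for Snhg11, -4.81 for Angptl7, -4.76 for Rgs11, -4.73 for Neat1, -4.66 for Firre, -3.16 for Atp10d, -2.57 for Egf, -2.27 for Klk1b5 and -1.55 for Slc5a2. The call of Angptl7 was lost in 7 of the fits that left out a library, and that of Rgs11 in 1. In Snhg11, Rgs11, Neat1 and Firre the Pkd1-RC/RC libraries of P12 disagreed, as given above.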

How the results depend on the processing

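The count of 3512 calls became 1449 with only the 6 libraries compared and 2198 with all 36 in a fit, and ranged from 2205 to 3667 with a library left out. The rises (1848) became 869 with only the 6 libraries, and 1304 to 2067 with a library left out. The falls (1664) became 580 with only the 6, 1008 without the libraries holding adrenal transcripts, 913 with all 36, and 892 to 1600 with a library left out. Calls near Pkhd1 (36) became 16 with the 6, 22 with all 36, and 23 to 38 with a library left out. Pkhd1-/- against WT (6) gave 3 with all 36, 10 with DESeq2, and 4 to 5. The interaction (1542) gave 849 with all 36, 2739 with DESeq2, and 558 to 2076. The age change (415) gave 685 with DESeq2 and 165 to 594, P3 (194) gave 309 and 3 to 341, and P0 (63) gave 212 and 18 to 141. The maturation difference ranged from -0.238 to -0.201 with a library left out. The sign of Pkd1, which was not called, turned to 0.0021 without Pkd1-RC/RC replicate 3, within a range of -0.25 to 0.0021. The cause of these changes was not tested.

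With replicate numbers as a block 3305 genes were called. The numbers share no stated litter or day, deviations of same-numbered libraries correlated at 0.0346, -0.0103 and 0.0784, and Digenic replicate 2 did not correlate best with its own number. Other scalings gave 3510 and 3601 calls, no filter 3538, a sex term 2777, leaving out both libraries whose headers differ from their labels 2865, and DESeq2 4424. A sex term in the fit of all 36 gave 394 calls of the age change, 180 at P3 and 54 at P0. That term, the alternatives at P3 and P0, and leaving out the libraries with adrenal transcripts were chosen after seeing the data. Depth was at least 53152909 counts a library, so the number of libraries limits precision more than depth does for all but the lowest genes. Without the libraries holding adrenal transcripts, Digenic replicate 1 stands alone and was assumed to vary like the other groups.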

Other observations

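Counts near or below the shares of all genes (10.3% higher and 9.24% lower) were seen in several pathways linked with cystic kidneys at P12, and many moved with 1 library. Wnt and planar polarity genes rose in 1 of 33 (Wnt7b) and fell in 1 (Dkk2, lost without replicate 2 or 3 of Pkd1-RC/RC or replicate 1 or 3 of Digenic). Their rises were 5 without Digenic replicate 1 and 2 without its replicate 2 or Pkd1-RC/RC replicate 1, and their falls 3 without Digenic replicate 2 and 6 with only Digenic replicate 1 kept. Unfolded protein response genes fell in 1 of 20 (Atf4), 2 without Digenic replicate 1, and 0 without its replicate 3 or Pkd1-RC/RC replicate 1 or 3. Oxidative phosphorylation genes fell in 1 of 32 (Ndufs1 of complex I), and in 5 without Pkd1-RC/RC replicate 3. Without its replicate 1, 1 of them rose.

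Hedgehog genes rose in 2 of 15 (Ihh and Gas1), 1 without Digenic replicate 3, and fell in 1 (Sufu), a call kept in a single fit that left out a library, that without Digenic replicate 3. Nephron progenitor genes rose in 1 of 20 and fell in 2. Their rises were 2 without Digenic replicate 2 and 0 without Pkd1-RC/RC replicate 1, and their falls 1 without Digenic replicate 1 or Pkd1-RC/RC replicate 1 or 2. Cholesterol synthesis genes rose in 3 of 19 and fell in 1 (Hmgcs1), with 0 rises without Pkd1-RC/RC replicate 3 and 1 without its replicate 1 or Digenic replicate 3.

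YAP and TAZ targets rose in 8 of 20 and fell in 0. NRF2 antioxidant genes rose in 7 of 26 and fell in 2, with Hmox1, which breaks down heme, at 56.4, 56 and 56.7 CPM in Digenic and 26.1, 29.3 and 41.4 CPM in Pkd1-RC/RC libraries. Their rises became 4 with only the 6 libraries compared, and their falls 1 without replicate 2 or 3 of either group. Igf1, the insulin-like growth factor, had 32.9, 58.9 and 39.3 CPM in Digenic and 80.3, 111 and 105 CPM in Pkd1-RC/RC libraries (-1.18 ± 0.18, adjusted p = 0.00185 by edgeR), with no overlap, while its receptor Igf1r and the binding protein Igfbp3 rose by 0.50 and 0.47. Of 13 measured renin-angiotensin genes 3 rose and 1 fell (23.1% and 7.69%), with 0 to 2 rises and 0 to 1 falls when a library was left out. Agtr1a, the main angiotensin receptor, had 44.2, 51.3 and 47.4 CPM in Digenic against 54.7, 58.4 and 61.4 CPM in Pkd1-RC/RC libraries. Ren1, renin itself, had 383, 391 and 279 CPM in Digenic against 246, 329 and 239.8 CPM in Pkd1-RC/RC libraries (adjusted p = 0.186 by edgeR).

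Markers of other tissues gave 0 calls in 8 erythroid and 10 fat genes, 2 of 5 muscle genes lower, 1 of 9 genes of liver, gut and pancreas lower and 2 of 15 urothelial genes higher. The muscle falls were 0 without replicate 1 of Pkd1-RC/RC or replicate 1 or 3 of Digenic, and 1 without Pkd1-RC/RC replicate 2 or 3. The liver, gut and pancreas fall was lost without replicate 1 of either group, Digenic replicate 3 or Pkd1-RC/RC replicate 2, with 2 falls without Pkd1-RC/RC replicate 3. The urothelial rises were 1 without replicate 1 of either group or Pkd1-RC/RC replicate 2. Fat markers summed to 224, 202 and 124 CPM in Digenic and 456, 263 and 125 CPM in Pkd1-RC/RC libraries, and replicate 3 was the lowest in both groups.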
